A study of Mus musculus with 4 samples.

Results

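The genes described here encode the enzymes that write, keep and remove DNA methylation in mouse cells: the methyltransferases Dnmt1, Dnmt3a, Dnmt3b and Dnmt3l, the maintenance factor Uhrf1, the dioxygenases Tet1, Tet2 and Tet3, and the glycosylase Tdg. A gene was taken as measured where a probe set of the array was annotated to its symbol alone, and the brightest such probe set stood for it. This held for 8 of the 9 genes, out of 19938 genes in all. Tdg was listed only together with its pseudogene Tdg-ps2, on 4 probe sets, so it has no value of its own. The RNA came from E14, a line of mouse embryonic stem cells, infected with a lentivirus that carried an shRNA against Usp22 or, as control, against luciferase (Luc). Each group held 2 one-colour Affymetrix arrays, replicates 1 and 2. All cells, controls included, were kept feeder-free on gelatin, in 20% FBS with LIF and the inhibitor pair called 2i, which is PD0325901 against MEK at 1 µM and CH99021 against GSK3 at 3 µM. Nothing in the labels says that replicates were separate cultures, so p-values cover only the spread between these arrays, which may be technical. The sources used here give neither the shRNA sequences nor the time after infection.

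In mammals, methyl groups sit mainly on cytosines of CpG dinucleotides. Dnmt3a and Dnmt3b place them on unmethylated DNA, and Dnmt3l, which has no catalytic activity, assists both. After replication, Uhrf1 binds hemimethylated CpG sites and brings in Dnmt1, which copies the mark to the new strand. Tet enzymes oxidise methylcytosine, and Tdg excises the more oxidised bases, which base excision repair then replaces with cytosine. Stem cells held in 2i and LIF are known for low DNA methylation, with little Dnmt3b and Dnmt3l compared with cells in serum and LIF without 2i. Methylation itself was not measured on these arrays. Usp22 is the ubiquitin protease of the coactivator complex SAGA, and the comparison asks what differs in RNA when it is reduced.

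Windows at listed starts of Dnmt3b, Dnmt1 and Tet1 are shown as examples rich in the dinucleotide the enzymes act on. Dnmt3b read higher and the other 2 lower on both depleted arrays. Tet2 and Tet3, also lower on both, are not shown, though their windows held more CpG (57 and 22) than that of Tet1. Each window of 300 bases lies around a RefSeq start (build GRCm38.p6), mostly upstream of it, and is written 5′ to 3′ on the gene's strand with every CpG in capitals. For Dnmt1, the start with the most CpG was taken of 3 listed. The windows of the other 2 held 12 and 2 CpG and lie upstream of it on the gene's strand. Transcripts from those starts run through the window shown, so it need not be the main promoter of Dnmt1.
Dnmt3b: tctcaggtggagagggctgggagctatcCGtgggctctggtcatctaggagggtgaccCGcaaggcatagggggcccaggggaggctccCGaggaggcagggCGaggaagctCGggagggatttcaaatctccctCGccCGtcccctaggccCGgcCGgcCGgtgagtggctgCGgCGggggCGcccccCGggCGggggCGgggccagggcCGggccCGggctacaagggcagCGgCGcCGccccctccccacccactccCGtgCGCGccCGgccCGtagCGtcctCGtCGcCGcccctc
Dnmt1: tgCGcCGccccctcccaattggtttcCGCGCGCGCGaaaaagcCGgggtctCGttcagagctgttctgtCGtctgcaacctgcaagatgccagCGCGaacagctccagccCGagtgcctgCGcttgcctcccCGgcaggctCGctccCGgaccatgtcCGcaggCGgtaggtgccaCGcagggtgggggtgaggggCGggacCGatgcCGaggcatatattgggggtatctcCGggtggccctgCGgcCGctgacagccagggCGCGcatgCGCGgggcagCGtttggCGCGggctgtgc
Tet1: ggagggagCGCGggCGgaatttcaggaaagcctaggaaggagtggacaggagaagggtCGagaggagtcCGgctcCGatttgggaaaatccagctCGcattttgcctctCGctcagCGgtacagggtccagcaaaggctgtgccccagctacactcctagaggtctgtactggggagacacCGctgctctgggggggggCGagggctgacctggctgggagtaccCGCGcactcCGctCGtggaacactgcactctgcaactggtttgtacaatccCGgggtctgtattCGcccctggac
The Dnmt3b window lies at chr2:153649199-153649498 on the + strand and holds 30 CpG. That of Dnmt1 lies at chr9:20952574-20952873 on the - strand with 33, and that of Tet1 at chr10:62887275-62887574 on the - strand with 17. The median over 32851 windows of the same length was 7. The table held 16 windows for the 9 genes, and some of 1 gene overlap each other. Tet2 had the most CpG (57) and the richest Dnmt3a window had 47, while the 3 Dnmt3l windows had 3 to 6. The GC box GGGCGG, searched on both strands as were all motifs, was found in 12 of the 16 windows and in 35.7% of all windows. CCAAT was found in 6 of 16 and in 37.4%, CACGTG in 3 and in 7.15%, and GCGGGAA, a core read by E2F factors, in 1, a Uhrf1 window, and in 4.6%. No matches of different motifs overlapped in these windows (0 overlaps). These are letter matches only.

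Signals were compared as quantile-normalized log2 intensities. Usp22, the targeted gene, read 9.41 and 9.36 in Luc controls against 8.23 and 8.29 after depletion, a fall of 2.17-fold (limma adjusted p = 0.00826) that did not pass without either depleted array (0.830 and 0.360). All 12 stem cell markers lay above the receptor background, which is the 95th percentile of the mean signals of 1190 olfactory and vomeronasal receptor genes, 6.99 on the log2 scale. So did 4 of 8 fibroblast, 3 of 8 primitive endoderm, 5 of 8 trophectoderm, 2 of 5 mesoderm and 3 of 5 neuroectoderm markers. Summed over each list on the linear scale, markers were lower in the mean of the depleted arrays in all 6 lists: 15212 and 15725 against 16531 and 16694 for stem cell markers, and 987 and 1026 against 1020 and 1313 for fibroblast markers, where the ranges overlap. Primitive endoderm sums were 721 and 751 against 835 and 1054. The receptor genes that set the background also read lower in depleted cells, with a median log2 difference of −0.20 and 936 of 1190 negative. Gene by gene, 6 of the 12 stem cell markers had a positive difference and 6 a negative one, with a median of −0.021. Their part in the results below was not tested. Control replicate 2 stood apart, with Pearson correlations across genes of 0.941 with control replicate 1 and of 0.877 and 0.908 with the depleted arrays, against 0.951 to 0.978 among the other 3 arrays. In RNA from a whole culture, fewer cells of a type and less RNA per cell cannot be told apart.

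None of the 8 measured genes passed the test. At a limma adjusted p under 0.05 over all genes, 0 of the 8 were called, beside 2.73% of all genes (2.62% higher and 0.105% lower in depleted cells), and 0 of the 8 also had an unadjusted p under 0.05, beside 22.1% of all genes. All 8 lay above the receptor background in their mean over the 4 arrays. Dnmt3b was higher on both depleted arrays than on both control arrays, and Dnmt1, Tet1, Tet2 and Tet3 were lower on both. Such a gap, called "without overlap" below, was thus seen for 5 of 8 genes (62.5%), beside 60.7% of all genes. Of the 9753 genes above the receptor background, where all 8 lay, 74.5% were without overlap, 3588 higher and 3680 lower. The higher direction held 1 of 8, beside 27.4% of all genes, and the lower direction 4 of 8, beside 33.3%. With each array centred on its median the genes without overlap were 2 higher (Dnmt3b and Uhrf1) and 2 lower (Tet1 and Tet3). The median difference of the 8 genes was −0.17 on the log2 scale, against −0.12 for all genes and −0.027 for the 9753 genes above the receptor background. The order against all genes turned with the scaling: the 8 genes had a median of −0.075 against −0.24 on the deposited log2 values, and of 0.067 against −0.095 after centring. Without control replicate 1 their median was −0.034. All genes shared a standard error of 0.27, so in this fit p followed the size of the difference and not a gene's own replicate spread. The smallest difference called in either direction was 0.86. With 2 arrays a group, the smallest p an exact permutation test allows is 0.333.

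**Figure D1:**
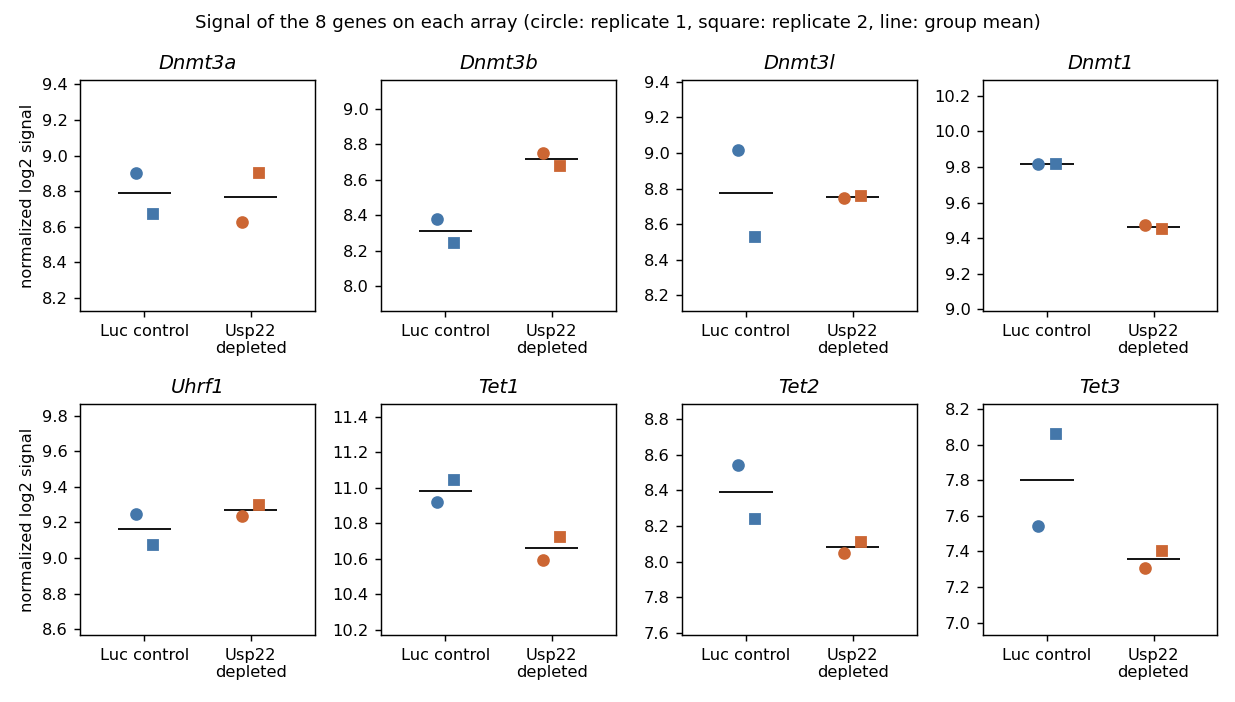
Normalized log2 signal (vertical axes, each spanning the same range around the gene's mean) of the 8 measured genes on the control and Usp22-depleted arrays. Circles are replicate 1, squares replicate 2 and lines group means. Dnmt3b is higher on both depleted arrays, Dnmt1 and the 3 Tet genes are lower on both, and Dnmt3a, Dnmt3l and Uhrf1 overlap between groups.

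Of the de novo enzymes, only Dnmt3b separated the groups. Dnmt3b read 8.38 and 8.24 in Luc controls against 8.75 and 8.68 after depletion. The gap between the nearest arrays of the groups was 0.30, more than the distance between the arrays of either group. In group means this is 8.31 ± 0.096 against 8.71 ± 0.048 (SD, n = 2 each), or 1.32-fold higher (log2 difference 0.40, 95% interval −0.12 to 0.93, limma adjusted p = 0.319). The difference stayed between 0.34 and 0.47 when 1 array at a time was left out, and it was 0.61 after centring each array on its median (limma adjusted p = 0.143). The adjusted p ran from 0.0786 to 0.830 over the alternatives, so no setting called it.

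Dnmt3a, the other active de novo enzyme, did not separate the groups. Its signal was 8.90 and 8.67 in Luc controls against 8.63 and 8.90 after depletion. The lowest and highest values were both depleted arrays, and the spread inside each group exceeded the log2 difference of −0.022 (95% interval −0.55 to 0.50, limma adjusted p = 0.955). The cofactor gene Dnmt3l read 9.02 and 8.53 in Luc controls against 8.74 and 8.76 after depletion. Both depleted arrays lay inside the control range. The control arrays were 0.49 apart, and the difference was −0.023 (95% interval −0.55 to 0.50, limma adjusted p = 0.953). The signs of Dnmt3a and Dnmt3l depended on the scaling, with differences of 0.20 and 0.19 after centring on the median. Without control replicate 1 they were 0.091 and 0.22. For both genes the intervals leave room for a change of about the size seen for Dnmt3b in either direction.

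Neither gene of the maintenance pair passed the test. Over both groups Dnmt1 had the most even replicates of the set, 9.82 on each control array and 9.47 and 9.45 on the depleted arrays. The groups did not overlap, with a gap of 0.34, and the means were 9.82 ± 0.0022 and 9.46 ± 0.015 (SD, n = 2 each). The log2 difference of −0.35 (1.28-fold lower, 95% interval −0.88 to 0.17) did not pass (limma adjusted p = 0.372). With limma's intensity trend the 95% interval was −0.65 to −0.059, and with the trend and robust settings −0.64 to −0.070. Neither includes 0, but neither setting called Dnmt1 (limma adjusted p = 0.135 and 0.121). The difference stayed between −0.36 and −0.34 with any 1 array left out. The scaling moved it more: with each array centred on its median the signals were 9.80 and 9.61 against 9.62 and 9.53, so the groups overlapped and the difference came to −0.13 (limma adjusted p = 0.742). Uhrf1, which guides Dnmt1 to replicated DNA, read 9.25 and 9.08 in Luc controls against 9.24 and 9.30 after depletion. Control replicate 1 lay between the depleted arrays, and the difference was 0.11 (95% interval −0.42 to 0.63, limma adjusted p = 0.779). Centring on the median put Uhrf1 at 0.32 and without overlap, again short of the threshold (limma adjusted p = 0.431).

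The 3 Tet genes were each lower on both depleted arrays. Tet1 read 10.92 and 11.04 in Luc controls against 10.59 and 10.72 after depletion. The nearest arrays of the groups were 0.20 apart, and the means were 10.98 ± 0.087 and 10.66 ± 0.092 (SD, n = 2 each). The log2 difference was −0.32 (1.25-fold lower, 95% interval −0.85 to 0.20, limma adjusted p = 0.412). Tet1 was the only gene of the set called by either of the other variance settings tried. With limma's intensity trend, which gave this bright gene a standard error of 0.094, the adjusted p was 0.0322, beside 3.07% of all genes called and 1.43% called lower. With the trend and robust settings, which called 3.61% of all genes, it was 0.0515. The size depended on the scaling: −0.20 on the deposited log2 values and −0.060 after centring on the median (limma adjusted p = 0.550 and 0.880).

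Tet2 read 8.54 and 8.24 in Luc controls against 8.05 and 8.11 after depletion. Its groups were 0.13 apart, less than the distance of 0.30 between the control arrays. The log2 difference was −0.31 (95% interval −0.84 to 0.21, limma adjusted p = 0.427), −0.16 without control replicate 1 and −0.46 without control replicate 2. With each array centred on its median, control replicate 2 read 8.07, under both depleted arrays at 8.17, and the difference was −0.13. Tet3 read 7.54 and 8.06 in Luc controls against 7.31 and 7.40 after depletion. Control replicate 2 stood 0.52 above control replicate 1, against 0.14 between the groups. The log2 difference was −0.45 (1.36-fold lower, 95% interval −0.97 to 0.079, limma adjusted p = 0.283), the largest of the 8 in size. It rested on control replicate 2. Without that array it was −0.19 (limma adjusted p = 0.648), and without control replicate 1 it was −0.71 and passed (limma adjusted p = 0.0131), in a fit that called 4884 genes higher and 4236 lower.

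**Figure D2:**
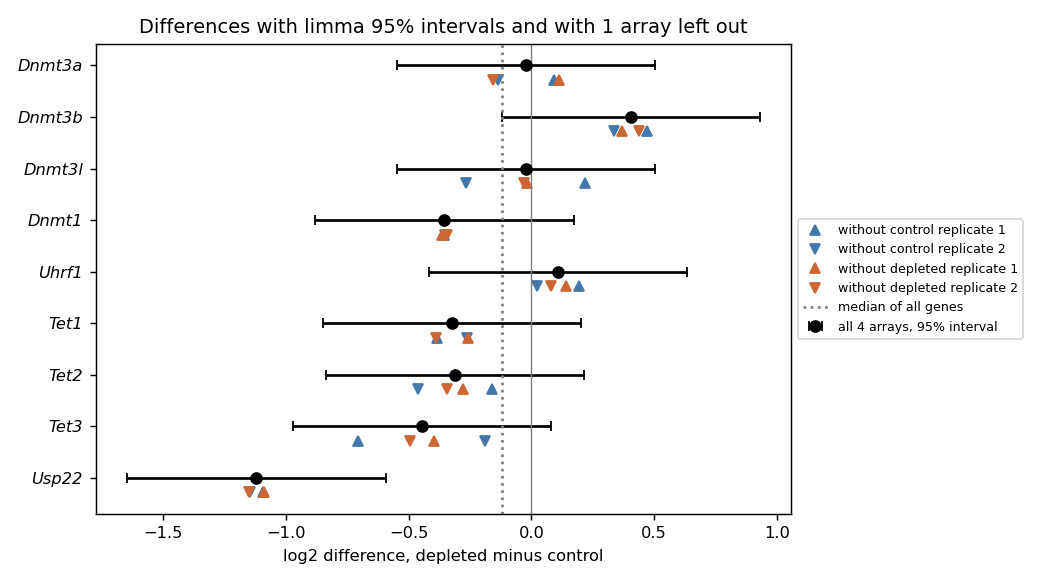
Log2 difference (depleted minus control, horizontal axis) of each gene with its limma 95% interval (black, all 4 arrays) and with 1 array left out (coloured triangles). The intervals of all 8 genes include 0, that of Usp22 (−1.12) does not, and the dotted line marks the median of all genes at −0.12.

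The scaling also decides where these genes stand against the rest of the array. The median of all genes was −0.12 after quantile normalization, −0.24 on the deposited log2 values and −0.095 after centring. Relative to that median, Dnmt3b was at 0.52 after quantile normalization and at 0.70 with either other scaling. Dnmt1 was at −0.24 and −0.031, Tet2 at −0.19 and −0.034, and Tet3 at −0.33 and −0.25. Tet1 moved from −0.20 to 0.035 and so changed side. Uhrf1 was at 0.23 and 0.41, Dnmt3a at 0.096 and 0.29, and Dnmt3l at 0.095 and 0.29. Dnmt3b and Tet3 were the ends of the order under every scaling.

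Tet1 and Tet3 had more than 1 probe set, and those of Tet1 disagreed. The second Tet1 probe set read 10.65 and 10.70 in Luc controls against 10.20 and 10.42 after depletion, lower without overlap like the brightest. The dimmest read 8.69 and 8.51 against 9.17 and 8.67, higher in group mean by 0.32 with overlapping arrays. In a fit over all 28856 probe sets, chosen after the data were seen, the differences of the 3 were −0.32, −0.37 and 0.32 (limma adjusted p = 0.431, 0.375 and 0.434). Averaging the 3 probe sets put Tet1 at −0.12. The second Tet3 probe set lay under the receptor background, at 6.43 and 6.06 against 5.67 and 6.20. Its groups overlapped, at a difference of −0.31 (limma adjusted p = 0.448).

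The 4 probe sets that list Tdg with Tdg-ps2 were all higher on both depleted arrays. The brightest read 8.30 and 8.06 in Luc controls against 8.63 and 8.45 after depletion. Differences ran from 0.36 to 0.45 over the 4 (limma adjusted p from 0.292 to 0.385 in the fit over all probe sets), and none passed. Of all genes, 27.4% were higher without overlap, as were 3588 of the 9753 above the receptor background. On each of the 4 probe sets replicate 1 was above replicate 2 in both groups. The annotation gives all 4 the same pair of symbols, so they are not separate measurements of Tdg, and signal of the gene and of the pseudogene cannot be told apart.

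**Figure D3:**
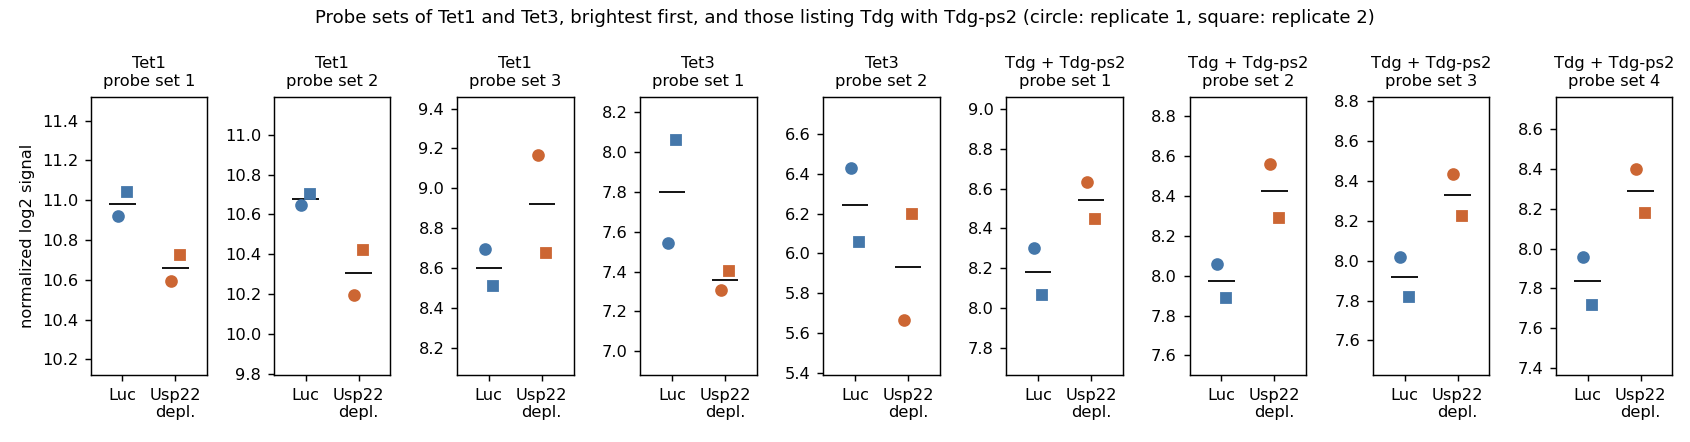
Normalized log2 signal (vertical axes) on the control and depleted arrays for the 3 probe sets of Tet1, the 2 of Tet3 and the 4 that list Tdg with Tdg-ps2, each ordered from brightest to dimmest. Circles are replicate 1, squares replicate 2 and lines group means. The dimmest Tet1 probe set goes the other way from the other Tet1 probe sets, and all 4 Tdg with Tdg-ps2 probe sets are higher on both depleted arrays.

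Dnmt3b was also set against each other gene inside each array, a comparison chosen after the values were seen. The log2 signal of Dnmt3b minus that of Dnmt1 was −1.44 and −1.58 in Luc controls against −0.73 and −0.77 after depletion, a shift of 0.76. Its shift against Tet1 was 0.73, against Tet2 0.71 and against Tet3 0.85. Against Dnmt3a and Dnmt3l it was 0.43 each, and against Uhrf1 0.30. On the deposited values the 7 shifts ran from 0.29 to 0.95. All 7 share Dnmt3b and restate the values above, and no test was made.

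The 8 profiles were also compared with those of 9752 other genes above the receptor background, by the Euclidean distance between the 4 log2 values after each gene's mean was taken off. The nearest genes were Palm3 and Pfn1 for Dnmt1 (distances 0.011 and 0.018), Slc25a39 and Lrsam1 for Dnmt3a (0.028 and 0.029), Ctsb and Pbdc1 for Dnmt3b (0.015 and 0.020), and Dera and Pex6 for Dnmt3l (0.018 and 0.030). They were Rps18 and Cct6a for Uhrf1 (0.012 and 0.025), D2hgdh and Mrpl10 for Tet1 (0.0075 and 0.011), Dab2ip and Fam160a2 for Tet2 (0.022 and 0.027), and Gm5460 and Aatk for Tet3 (0.010 and 0.016). None of the 8 genes was among the nearest 2 of another. With 4 arrays and this many genes, close profiles are common, and the distances describe these arrays only.

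Genes around the enzymes were described by 5 lists, none tested as a set. Their counts stand beside 2.73% of all genes called, 22.1% at an unadjusted p under 0.05 and 3.07% with the intensity trend. Of 24 measured genes listed under methylation recruitment and protection, 0 rose and 0 fell by limma (5 and 1 at an unadjusted p under 0.05, and 0 and 3 with the intensity trend), with a median of 0.10. At an unadjusted p under 0.05 that is 25% of the list. Its genes need not all act on methylation in the same direction. The histone methyltransferase gene Suv39h2 stood at 0.85 (limma adjusted p = 0.0512) and read 7.41 and 6.70 against 8.01 and 7.80. Hells, a remodelling ATPase needed for normal DNA methylation, was at 0.71 (7.90 and 7.46 against 8.51 and 8.27), Smchd1 at 0.70 and the demethylase gene Kdm1b, under the receptor background, at 0.69 (limma adjusted p = 0.111, 0.116 and 0.120). Suv39h2, Hells and Smchd1 passed after centring on the median (0.92, 0.85 and 0.84, limma adjusted p = 0.0310, 0.0434 and 0.0451) and in a fit of only the genes above the receptor background (0.0137, 0.0403 and 0.0425). Suv39h2 also passed with the dimmest 25% of genes left out (limma adjusted p = 0.0269) and with probe sets averaged (0.0485). Control replicate 2 was the lowest array for all 4. Without it they stood at 0.50, 0.49, 0.41 and 0.30, and the list median was −0.13.

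Among 11 measured genes of the CpG readers, 0 rose and 0 fell by limma (2 and 1 at an unadjusted p under 0.05, and 0 and 0 with the intensity trend), with a median of −0.33, or −0.15 after centring. At an unadjusted p under 0.05 that is 27.3% of the list. The methyl-CpG binding zinc finger genes Zbtb33 (0.64, under the receptor background), Zbtb4 (−0.61) and Zbtb38 (0.53) stood on both sides of 0, and Cxxc5, whose product binds unmethylated CpG, stood at 0.51 (limma adjusted p from 0.150 to 0.237). Without control replicate 2, Zbtb4 was at −0.30, Zbtb38 at 0.20 and Cxxc5 at 0.19. The 5 measured Mbd genes, named after their values were seen, ran from −0.43 (Mbd6) to −0.20 (Mbd3), and 4 of the 5 were lower without overlap, where all genes gave 33.3%. Of the 9753 genes above the receptor background, where all 5 lay, 3680 were lower without overlap. Centring on the median put Mbd3 at 0.015.

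In the list of base excision repair genes and genes of Tet cofactor metabolism, 0 of 25 measured rose and 0 fell by limma (5 and 1 at an unadjusted p under 0.05, and 1 and 0 with the intensity trend), with a median of 0.21, or 0.36 after centring and 0.062 without control replicate 2. At an unadjusted p under 0.05 that is 24% of the list. The glycosylase genes Neil2 and Neil3 stood at 0.70 and 0.61, the stress gene Gadd45b at 0.62 and the repair scaffold gene Xrcc1 at −0.58 (limma adjusted p from 0.114 to 0.188). Neil3 lay under the receptor background, and Neil2 was above it only in the depleted mean. Xrcc1 passed with the trend and robust settings (limma adjusted p = 0.0428). Without control replicate 2, Neil2 moved to 0.38 and Gadd45b to 0.41. Of 15 measured genes of the S-adenosylmethionine cycle, which makes the methyl donor, 0 rose and 1 fell, beside 2.62% and 0.105% of all genes (3 and 1 at an unadjusted p under 0.05, and 1 and 1 with the intensity trend), with a median of 0.37 and of 0.054 without control replicate 2. The gene was Mat1a, a methionine adenosyltransferase, under the receptor background in its mean over the 4 arrays (log2 difference −1.13, limma adjusted p = 0.00759). It read 7.07 and 7.15 in Luc controls against 4.88 and 7.06 after depletion, so that 1 array made the call. Without depleted replicate 1 its difference was −0.042 (limma adjusted p = 0.969), and without control replicate 2 it was −1.09 and not called (0.179). Shmt2, a serine hydroxymethyltransferase gene that feeds the folate cycle, stood at 0.81 (limma adjusted p = 0.0692), Mat2b at 0.62 and Gnmt, under the receptor background, at 0.55 (0.165 and 0.209). Gnmt was at 0.054 without control replicate 2. Shmt2 and Mat2b passed after median centring (0.94 and 0.83, limma adjusted p = 0.0268 and 0.0493) and with the trend and robust settings (0.0497 and 0.0479). Shmt2 also passed with the intensity trend (limma adjusted p = 0.0481), with the dimmest 25% of genes left out (0.0385) and above the receptor background alone (0.0215).

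The last list held germline and placental genes whose promoters are known to be silenced by methylation in other cells. Of 21 measured, 3 rose and 0 fell, beside 2.62% of all genes that rose, and the median was 0.19. Only 7 of the 21 lay above the receptor background. In the fit of genes above it, 0 of this list rose and 0 fell, with a median of 0.067. Sycp3, of the synaptonemal complex of meiosis, read 6.56 and 6.01 in Luc controls against 7.48 and 7.27 after depletion (log2 difference 1.09, limma adjusted p = 0.0106). Mael, a piRNA pathway gene, read 6.48 and 6.01 against 7.35 and 7.21 (1.04, limma adjusted p = 0.0166). The germline antigen gene Magea4 read 5.38 and 4.99 against 5.99 and 6.10 (0.86, limma adjusted p = 0.0494), under the receptor background in both groups, while Sycp3 and Mael were above it only in the depleted mean. None of the 3 calls held without control replicate 2 (limma adjusted p = 0.103, 0.108 and 0.177), without either depleted array or on the deposited log2 values. Magea4 also did not pass with the intensity trend (0.106) or with the trend and robust settings (0.104). At an unadjusted p under 0.05 the list held 5 genes higher and 2 lower, and with the intensity trend 2 and 1. The unadjusted share was 33.3% of the list, beside 22.1% of all genes. Mov10l1, another piRNA pathway gene and under the receptor background, stood at 0.70 (limma adjusted p = 0.114). Of the 21 genes, 14 had a positive difference and 7 a negative one. Without overlap, 8 were higher and 5 lower, 61.9% in either direction beside 60.7% of all genes (27.4% higher and 33.3% lower). Without control replicate 2 the list median was −0.0075.

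**Figure D4:**
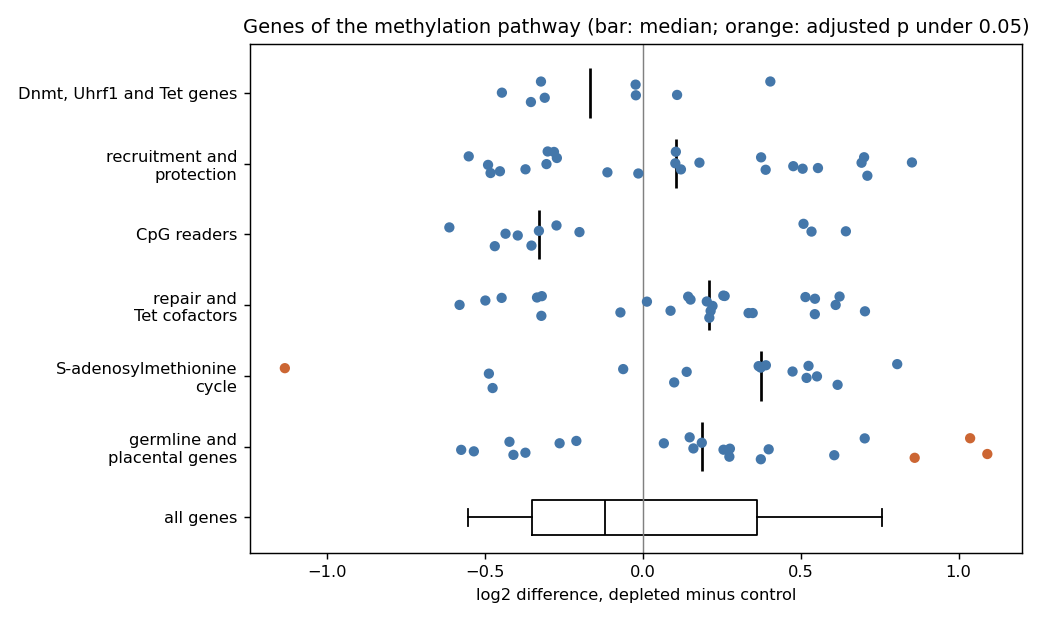
Log2 difference (depleted minus control, horizontal axis) of every measured gene in the set and in 5 related lists, with the list median as a black bar and called genes in orange. The box for all genes spans the quartiles, with whiskers from the 5th to the 95th percentile. Most list genes lie inside those whiskers, and the 4 called genes are Mat1a on the left and Magea4, Mael and Sycp3 on the right.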

How the data were processed

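RNA was measured on 4 one-colour Affymetrix arrays. The deposited table gives each probe set a linear intensity on every array, with array medians from 110 to 128. The sources used here do not give the summarisation, background correction or normalization. Total RNA was Trizol-extracted and column-cleaned and biotin-labelled cDNA was made from it, per the labels' protocols.

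Their log2 was quantile-normalized between arrays. GEO's platform annotation gave 1 symbol to 21789 of 28856 probe sets, several to 1621 and none here to 5446; 21698 of the first matched RefSeq by gene ID. The brightest probe set was kept for 999 genes with several. Tests used limma 3.58.1 in R 4.3.3 (lmFit, eBayes, 2 groups, two-sided, Benjamini-Hochberg over 19938 genes). The residual degrees of freedom were 2 and the prior ones infinite. The number of arrays limits the precision. The procedure was tested on simulated data. Windows around gene starts came from RefSeq and were read with Python 3.11.15.

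The members and lists were chosen with earlier results of these data known. Named were the 9 genes and Usp22, in each list every called gene and the 4 of lowest p, and the 2 nearest profiles of each gene. Alternatives were other scaling, filters on dim genes, averaged probe sets, limma's trend and robust settings, a replicate block and 1 array left out.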

Additional observations from a re-analysis of the deposited data

How the results depend on the processing

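Over the settings tried, Dnmt1, Dnmt3b, Uhrf1, Tet1, Tet2 and Tet3 kept their sign, and Dnmt3a and Dnmt3l did not. On the deposited log2 values Dnmt3a stood at 0.059 and Dnmt3l at 0.052, and with arrays centred on their median at 0.20 and 0.19. With 1 array left out, Dnmt3a ran from −0.16 to 0.11, Dnmt3l from −0.27 to 0.22, Tet3 from −0.71 to −0.19 and Usp22 from −1.15 to −1.09. Tet3 passed without control replicate 1, and Usp22 did not pass without depleted replicate 1 or 2 (limma adjusted p = 0.830 and 0.360); a lone array is then assumed to vary like the other group. With the intensity trend Tet1 passed at −0.32 (limma adjusted p = 0.0322). The counts over all genes, 523 higher and 21 lower, were 75 and 10 on the deposited log2 values, 927 and 20 with arrays centred on their median, 381 and 339 with the trend and robust settings, and 326 and 286 with the trend alone. The lower count was 36 with the dimmest 25% of genes left out and 149 above the receptor background. With 1 array left out the counts ran from 0 to 4884 higher and from 0 to 4236 lower (limma; without depleted replicate 1, where both counts were 0, 540 genes were higher and 48 lower at an unadjusted p under 0.05). With the replicate number as a block they were 856 and 42, and no call changed among the 8 measured genes, while Suv39h2 and Shmt2 of the related lists passed (limma adjusted p = 0.0295 and 0.0421). Same-numbered arrays deviated from their group means with a correlation of 0.10 across genes, and nothing in the labels says that the numbers pair the arrays. The cause of these moves was not tested.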

Other observations

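Some bright genes of the methylation pathway outside the rule for named genes did not pass in the fit with a constant variance but passed with limma's intensity trend, and they were picked after their values were seen. Zfp57, which guards imprinted methylation, read 11.11 and 11.12 in Luc controls against 10.54 and 10.58 after depletion. Its log2 difference was −0.55 (limma adjusted p = 0.209, or 5.44e-06 with the trend). Its corepressor gene Trim28 read 11.12 and 11.03 against 10.52 and 10.66, a difference of −0.48 (limma adjusted p = 0.257, or 0.000167 with the trend). With arrays centred on their median the differences were −0.27 and −0.21. Tex19.1, a germline gene active in stem cells, read 10.22 and 10.19 against 9.53 and 9.80, a difference of −0.54 (limma adjusted p = 0.220, or 0.00918 with the trend), in the opposite direction to Sycp3 and Mael of the same list, and −0.32 after centring. Idh1, whose enzyme makes the Tet cosubstrate 2-oxoglutarate, read 9.48 and 9.11 against 9.79 and 9.89, a difference of 0.55 (limma adjusted p = 0.213, or 0.0261 with the trend).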
